A study of Arabidopsis thaliana with 9 samples.

Results

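The genes of Arabidopsis thaliana described here are those whose transcripts rose most in seedlings of the jmj24 mutant: AT5G19890, AT3G53310, AT1G78450, AT1G26530, AT3G60650 and AT5G01940. They were selected on the measured log2 difference between mutant and wild type, as the 6 largest mean rises among the 36 named genes that passed the test as higher in the mutant. Each is measured by 1 probe set, and together they make up 6 of 13333 loci with a named probe set and 6 of 22746 probe sets tested. That difference is given below as a description with no test.

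RNA was taken from seedlings and hybridised to Affymetrix ATH1 GeneChips, with 3 arrays for each of 3 genotypes. The genotypes were the jmj24 mutant, supplied by the European Arabidopsis Stock Centre, a transformed line that carries 35S::JMJ24, and wild type of the accession Col-0. The 35S promoter comes from a plant virus and is active in most plant cells, so the overexpressor is not limited to the cells in which JMJ24 is normally transcribed. The labels give 1 mutant line and 1 overexpressor line, and the seedlings' age as 9 days in the extraction protocol and 10 to 14 days in the growth protocol. Growth on soil or on glucose plates is stated for the plants in general and not array by array. Whether the replicate arrays came from separate cultures is not given, so the spread between them may be technical.

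JMJ24 (AT1G09060) belongs to the jumonji family, a group of proteins named for a domain that in many members removes methyl groups from histones. Such marks, together with DNA methylation, keep transposons and some genes silent in plants, and the study asked what JMJ24 does in this silencing. Those of the 6 genes for which a protein family is named here belong to different families. AT5G19890 encodes a class III peroxidase, a secreted haem enzyme of the type that acts on the cell wall and on hydrogen peroxide. AT3G53310 encodes a protein with a B3 domain, a plant DNA-binding fold. AT1G78450 belongs to the SOUL family of haem-binding proteins, AT1G26530 encodes a protein with a PIN domain, a fold found in ribonucleases, and AT5G01940 is related to translation initiation factors. AT3G60650 is described by its locus only. These family assignments are general knowledge of the loci, since the annotation used here lists all 6 under the locus name.

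Every value is a log2 level as deposited, and every difference is in log2 units. A level can be read against a mark of background of 5.80, the mean of the brightest of 27 bacterial control probe sets, since 73.9% of probe sets lie above it. Within genotypes, the first principal component took up 40.1% of the variation, and array 1 had the lowest score of each genotype on it. In wild type array 3 lay about as far to the other side, at a score of 17.5 against -18.9 for array 1. The signal at the 3-prime end of 3 control transcripts exceeded that at the 5-prime end by 4.0 ± 0.035 in wild-type seedlings, by 3.97 ± 0.043 in mutant seedlings and by 3.96 ± 0.072 in the overexpressor (log2, SD, n = 3). The annotation pairs no probe set with JMJ24, and its own level was not analysed here. Of the markers listed for green tissue (6) and seed (3), 0 are measured under a name. Of 9 root markers 2 are, and of 4 flower and pollen markers 1 is, AT5G45880, which differed by -0.06 in the mutant (adjusted p = 0.901 by limma).

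AT5G19890, the peroxidase gene, had the largest rise of any named gene. It read 6.48, 6.28 and 6.63 on wild-type arrays 1, 2 and 3, and 7.61, 7.49 and 7.91 on the mutant arrays. On the 35S::JMJ24 arrays it read 7.18, 6.87 and 6.97. All 3 mutant arrays lay above all other arrays, and all 3 overexpressor arrays lay between the mutant and the wild-type arrays. The mean level was 7.67 ± 0.213 in the mutant against 6.46 ± 0.175 in wild type (SD, n = 3), a difference of 1.21 (SE 0.131) or 2.31-fold.

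AT3G53310, the B3-domain gene, had a wild-type level that hardly varied. It read 6.38, 6.41 and 6.45 on the wild-type arrays and 7.52, 7.32 and 7.72 on the mutant arrays. The overexpressor arrays read 6.67, 6.60 and 6.92, above every wild-type array by a small margin and below every mutant array. Mutant and wild type differed by 1.1 (SE 0.112) or 2.15-fold, and the wild-type SD was 0.034 against 0.201 in the mutant. The gap between the lowest mutant array and the highest wild-type array was 0.868, close to the 0.867 of AT5G19890 and wider than in the other 4 genes, where it ran from 0.340 to 0.663.

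AT1G78450, the SOUL family gene, lay above the mark of background on all 9 arrays. It read 7.45, 7.26 and 7.18 on the wild-type arrays, 7.94, 8.49 and 8.57 on the mutant arrays, and 7.82, 8.21 and 8.32 on the overexpressor arrays. The overexpressor arrays overlapped the mutant arrays and lay above wild type. In both lines array 1 read lowest, while in wild type array 1 read highest. Mutant and wild type differed by 1.04 (SE 0.178) or 2.06-fold. Without the arrays numbered 1 the difference was 1.31, a larger shift than the spread of 0.261 within genotypes.

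AT5G01940, the relative of translation initiation factors, had the smallest rise of the 6. It read 6.99, 6.74 and 6.75 on the wild-type arrays and 7.79, 7.33 and 7.74 on the mutant arrays. The overexpressor arrays, at 7.47, 7.10 and 7.42, overlapped the mutant arrays and lay above wild type. Mutant and wild type differed by 0.79 (SE 0.142) or 1.73-fold. The lowest mutant array and the highest wild-type array were 0.340 apart, the narrowest gap of the 6.

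AT1G26530 and AT3G60650 were dim. AT1G26530, the PIN-domain gene, read 4.70, 4.66 and 4.81 in wild type and 5.20, 4.92 and 5.18 in 35S::JMJ24, all below the mark. On the mutant arrays it read 5.76, 5.47 and 5.88, and only the last lay above the mark. Its 3 genotypes did not overlap, and the mutant lay 0.98 (SE 0.115) above wild type. AT3G60650 read 4.60, 4.85 and 4.69 on the wild-type arrays, 5.54, 5.25 and 5.19 on the overexpressor arrays, and 5.93, 5.29 and 5.57 on the mutant arrays. Only mutant array 1 lay above the mark, the overexpressor overlapped the mutant, and the mutant lay 0.88 (SE 0.157) above wild type. With levels this near to background, the size of both differences is uncertain.

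**Figure D1:**
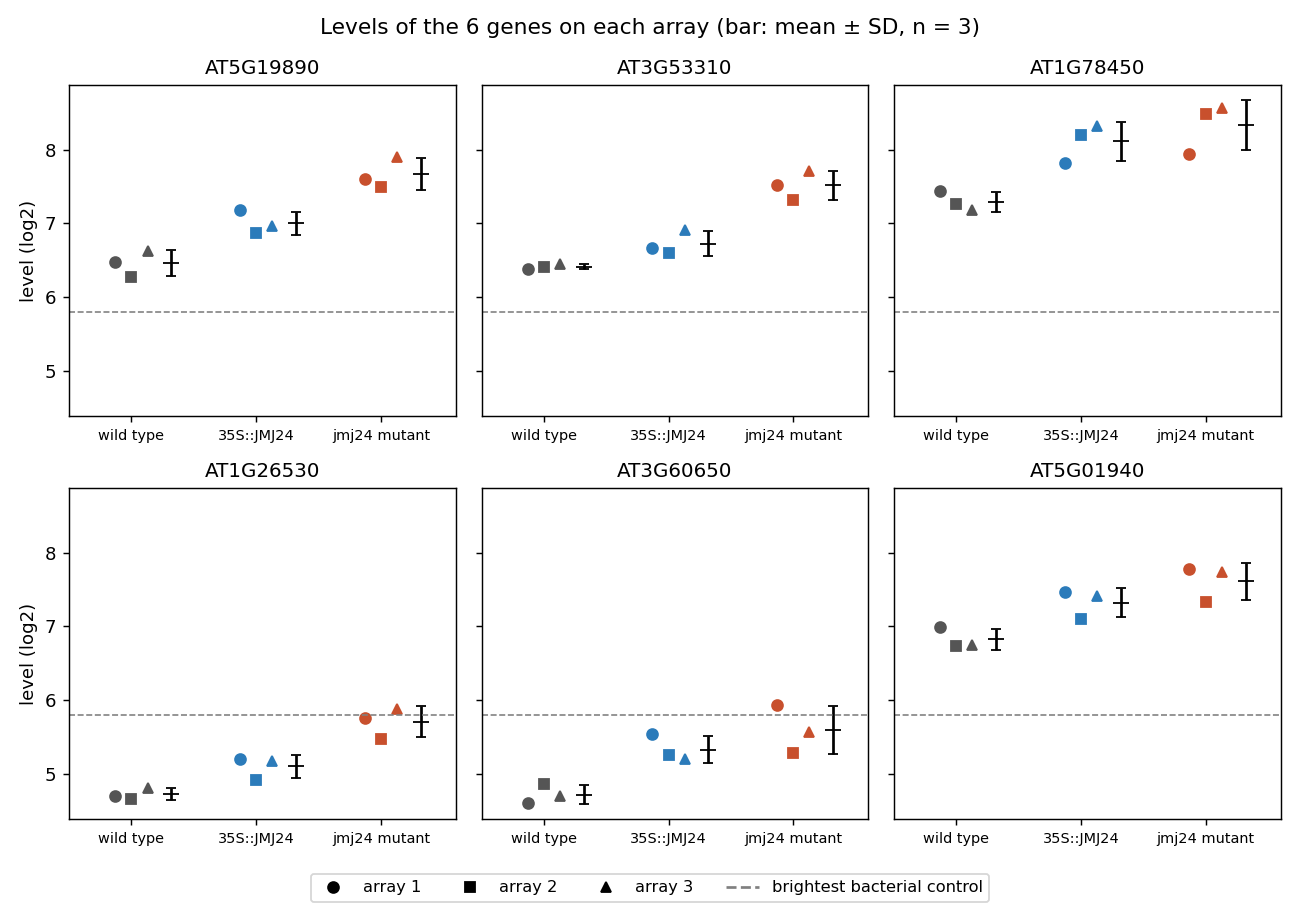
Each panel shows the log2 level of 1 gene on the 9 arrays, with 3 arrays for each genotype, marker shapes for the array number, black bars for mean ± SD (n = 3) and a dashed line at the mark of background (5.80). In every panel the wild-type arrays lie lowest, and in the panels of AT1G26530 and AT3G60650 nearly all arrays lie below the line.

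The choice of these genes has an edge that depends on the test as well as on size. Just outside it stood SDS (AT1G14750), a gene for a meiotic cyclin, at a difference of 0.76 (SE 0.148), and AT2G15630 at 0.75 (SE 0.142), close to the 0.79 of AT5G01940 just inside. A further 30 named genes passed as higher with a smaller difference than the 6. There were also 14 named genes with a larger mean difference than AT5G01940 that did not pass the test, and 4 probe sets without a single named gene that passed with a larger one. Passing depended on the arrays in the fit. AT5G19890, AT3G53310 and AT1G26530 passed whichever of the 9 arrays was left out, while AT1G78450 passed in 3 of those 9 fits and AT3G60650 and AT5G01940 in 2 of 9 each. Without all 3 arrays numbered 1, only AT1G78450 of the 6 passed. All these fits reuse arrays that picked the genes, so passing describes the choice and is no separate support for a gene. By size alone AT5G19890 ranked 2 and AT5G01940 ranked 31 among all probe sets. In this comparison 0.308% of probe sets passed as higher and 7.49% had all mutant arrays above all wild-type arrays, which the 6 genes share by the way they were picked.

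Setting the overexpressor against wild type shows how the same genes stood in the line that carries 35S::JMJ24. The level of JMJ24 itself was not analysed in either line. All 6 genes had a higher mean in 35S::JMJ24 than in wild type, as 57.1% of all probe sets had, and 0 of 6 passed the test. The differences were 0.54 for AT5G19890, 0.31 for AT3G53310, 0.82 for AT1G78450, 0.38 for AT1G26530, 0.61 for AT3G60650 and 0.50 for AT5G01940, with SE as in the comparison of the mutant. Adjusted p-values by limma over all 22746 probe sets ran from 0.383 for AT1G78450 to 0.623 for AT3G53310. Their unadjusted p-values by limma ran from 0.00119 to 0.0210, so 6 of 6 were under 0.05, where 7.43% of all probe sets were. The genes were picked partly on the same wild-type arrays, so that share is no fair baseline and the count is a description. Only 0.0176% of probe sets, 4 in number, passed in this comparison.

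The wild-type arrays are shared by both comparisons, and the genes were picked for low wild-type arrays, which by itself moves these differences upward. For the same reason the count of genes with no overlap between 35S::JMJ24 and wild type, 6 of 6 where 7.25% of all probe sets were higher without overlap, is given as a description. The 95% confidence interval of the difference reached from 0.42 to 1.22 for AT1G78450 and from 0.06 to 0.56 for AT3G53310, each for that gene alone and with no allowance for the choice. Over all probe sets the median difference was 0.02 in 35S::JMJ24 and 0.01 in the mutant, against a median of 0.52 and 1.01 for the 6 genes. The 1.01 is large by the choice of the genes. The mutant and the overexpressor thus stood on the same side of wild type for all 6, in the order mutant, 35S::JMJ24, wild type.

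**Figure D2:**
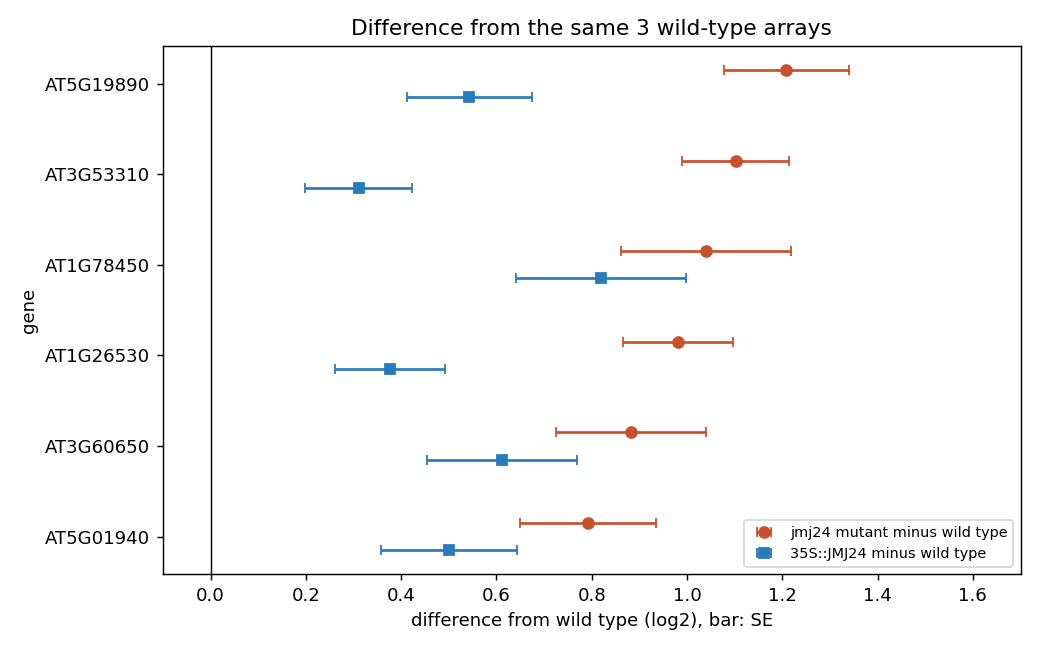
Log2 differences from wild type with their SE are plotted for the mutant (circles) and for 35S::JMJ24 (squares), both against the same 3 wild-type arrays. The mutant value lies to the right of the overexpressor value in each gene, by the widest margin for AT3G53310 (1.1 against 0.31) and the narrowest for AT1G78450 (1.04 against 0.82).

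When the lines were set against each other, the 6 genes differed in whether the mutant and overexpressor arrays overlapped. With 3 arrays a line this is a coarse split and does not define groups of genes. In AT5G19890, AT3G53310 and AT1G26530 the mutant arrays all lay above the overexpressor arrays, by 0.66 (SE 0.131), 0.79 (SE 0.112) and 0.60 (SE 0.115) on average. For these genes the overexpressor had moved 45.0%, 28.2% and 38.3% of the way from the wild-type mean to the mutant mean. In AT1G78450, AT3G60650 and AT5G01940 both lines overlapped, with differences of 0.22 (SE 0.178), 0.27 (SE 0.157) and 0.29 (SE 0.142). There the overexpressor had moved 78.8%, 69.4% and 63.1% of the way. These differences moved when single arrays were left out. That of AT1G78450 was 0.073 without 35S::JMJ24 1, 0.14 without mutant 2, 0.10 without mutant 3 and 0.42 without mutant 1. That of AT3G60650 was 0.10 without mutant 1 and 0.42 without mutant 2. That of AT5G01940 was 0.18 without 35S::JMJ24 2 and 0.44 without mutant 2. The absence of overlap in 3 of 6 genes stands beside 3.02% of all probe sets with the mutant higher than the overexpressor without overlap, and the mutant arrays were themselves high by the choice of genes, so these differences carry no test.

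Within a genotype the 6 genes also varied more than most. Their spread between arrays of 1 genotype ran from 0.152 for AT3G53310 to 0.261 for AT1G78450 (pooled SD), where the median over all probe sets was 0.117. In the mutant, array 2 read lowest in 5 of the 6 genes, the exception being AT1G78450. In 35S::JMJ24 array 2 read lowest in 4 of 6, and in wild type in 3 of 6. Array 1, with the lowest score of each genotype on the first component, was the lowest mutant array in 1 of 6 genes and the lowest wild-type array in 2 of 6. How often each array read lowest over all probe sets is not given here. These counts therefore do not mark out the 6 genes from other genes.

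Likeness of pattern was measured as the root mean square difference between mean-centred log2 levels over the 9 arrays, where 0 means the same profile. AT3G53310 and AT1G26530 were nearest to each other, at 0.108, and were each other's closest match among 13332 other named genes. AT5G19890 had the same genes as its nearest, AT1G26530 at 0.127 and AT3G53310 at 0.165. The measure uses the same mutant and overexpressor arrays that were compared above, so it adds no separate support for a group of these 3. SDS came next for AT5G19890, at 0.223, and the pseudogene AT1G27285 next for AT3G53310, at 0.235. For AT1G26530 the third match was AT5G01940 at 0.161.

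The other 3 genes were nearest to genes outside the 6. AT5G01940 was most like AT2G25270 (0.146), followed by AT1G26530 and AT3G07320 (0.167). AT3G60650 was most like the pseudogene AT3G21020 (0.171), followed by AT4G29990 (0.176) and AT5G01940 (0.177). AT1G78450 stood furthest from the rest, at 0.328 to 0.393 from each of the other 5, and its nearest match was AT2G02170 at 0.203, followed by AT1G27285 (0.239) and AT1G06830 (0.244). All of these matches read higher in the mutant than in wild type, by 0.51 to 0.76 for those outside the 6, as the measure requires, and nothing about shared function follows from it.

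The peroxidase family of AT5G19890 was the largest of the related groups. Of 72 other class III peroxidase genes 54 were measured under a name, and in the mutant 0 rose, 2 fell and 52 did not pass by limma, with 12 at an unadjusted p under 0.05. Over all probe sets 1.14% passed in either direction and 11.7% had an unadjusted p under 0.05. The median difference of the 54 was 0.05, with 31 of them higher in the mutant, against a median of 0.01 and 52.1% over all probe sets. In 35S::JMJ24 0 of the 54 passed, 12 had an unadjusted p under 0.05 by limma, and their median was 0.11. In that comparison 0.0176% of all probe sets passed, 7.43% had an unadjusted p under 0.05, and the median was 0.02.

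The peroxidase genes that fell in the mutant were both dim. AT2G24800 read 4.67 ± 0.084 in mutant and 5.29 ± 0.176 in wild-type seedlings (SD, n = 3), a difference of -0.62 with an adjusted p of 0.0144 by limma. AT5G06730 read 3.85 ± 0.137 and 4.40 ± 0.107, a difference of -0.55 with an adjusted p of 0.0185 by limma. Both lie below the mark of background in every genotype, so the sizes are uncertain. Without mutant 2 or mutant 3 neither passed by limma (adjusted p from 0.0517 to 0.0890), AT2G24800 was lost without wild type 3 (0.0518), and AT5G06730 was lost without wild type 1 (0.0712) or wild type 2 (0.0921).

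By the size of its p-value AT5G64110 came next, at -0.71 in the mutant (adjusted p = 0.0527 by limma) and -0.65 in 35S::JMJ24, and did pass in the mutant under some other settings. Its adjusted p by limma was 0.0118 without 35S::JMJ24 2, 0.0203 with array weights, 0.0294 with only the arrays compared and 0.0422 with a variance trend. AT5G17820 followed at 0.37 in the mutant (adjusted p = 0.207 by limma). AT5G39580, named after its values were seen, had the largest mean difference of the other peroxidases, 1.16 in the mutant, nearly that of AT5G19890. Its mutant arrays read 8.46, 9.85 and 10.5 and its wild-type arrays 7.82, 8.20 and 9.36, with overlapping groups and an SE of 0.592 (adjusted p = 0.494 by limma). The difference was 0.69 without mutant 3 and 1.74 without mutant 1. It also read lowest on array 1 of each genotype, which AT5G19890 did not.

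**Figure D3:**
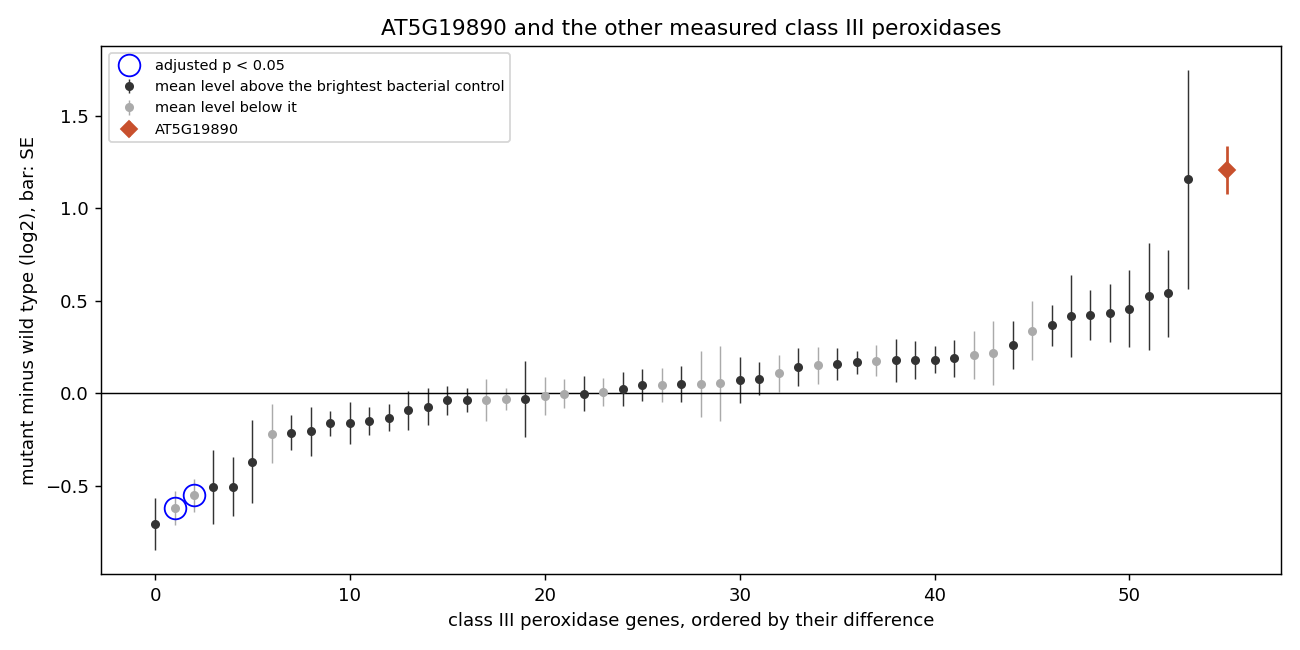
Log2 differences between mutant and wild type, with SE, are ordered by size for the 54 other class III peroxidase genes, and AT5G19890 stands at the right as a diamond. Grey points have a mean level below the mark of background, and the rings mark the 2 genes that passed the test, AT2G24800 (-0.62) and AT5G06730 (-0.55).

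Few relatives of the other members are measured under a name. Among the REPRODUCTIVE MERISTEM genes, a B3-domain family, 5 of 8 were measured, 0 passed by limma, 0 had an unadjusted p under 0.05, and their differences in the mutant ran from -0.24 to 0.19, with 0 of 5 above the mark of background. Among the genes for eIF2 beta and eIF5, factors that work at the start of translation, 3 of 4 were measured. They differed in the mutant by 0.07 (AT3G07920), -0.03 (AT1G36730) and -0.14 (AT1G77840), with adjusted p-values by limma of 0.673 or more. Of 25 genes whose names contain initiation factor 0 are measured under a name, and neither is the 1 gene for FCF1, the PIN-domain protein of ribosome assembly. Of 5 other SOUL family genes 1 was measured, AT1G78460, which lies next to AT1G78450.

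AT1G78460 had a bright probe set, far above the mark of background. It read 12.7 ± 0.171 for wild type, 12.8 ± 0.125 for 35S::JMJ24 and 12.9 ± 0.065 for the mutant (log2 level, SD, n = 3), the same order of genotype means as in AT1G78450. The overexpressor arrays overlapped both the wild-type and the mutant arrays. The difference of 0.14 between 35S::JMJ24 and wild type did not pass (adjusted p = 0.753 by limma). The difference of 0.27 between mutant and wild type did not pass (adjusted p = 0.326 by limma), and wild type 1 at 12.5 lay lowest. Without wild type 1 the difference was 0.17. Whether the probes of AT1G78450 also pick up this relative was not tested. The probe sets of all 6 genes carry the plain suffix that the array's maker gives to probes meant for 1 transcript.

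The genes that lie near the 6 along the chromosomes were examined in the order of the gene table. Only genes measured under a name were taken and the others were passed over, so some neighbours lie up to 11 places away. Changes in the genes passed over were not examined. Of the 36 nearest neighbours measured under a name, 3 on each side, 0 rose in the mutant and 1 fell. Of the 36, 35 did not pass by limma and 7 had an unadjusted p under 0.05 by limma. The median of the 36 was -0.02, the highest was 0.33 (AT1G78480), and 17 were above wild type. Over all probe sets 1.14% passed, 11.7% had an unadjusted p under 0.05, 52.1% had a higher mean in the mutant, and the median was 0.01. Beside AT5G19890 lie AT5G19880, itself a peroxidase gene, which read 4.24 in wild type and 4.23 in the mutant, and AT5G19900, which differed by -0.13. The nearest measured neighbours of AT3G53310, AT3G53300 (CYP71B31) and AT3G53320, differed by 0.10 and 0.13.

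For AT1G78450 the nearest measured neighbour on the other side was AT1G78410, at 0.09. The neighbours of AT1G26530 were AT1G26520 at 0.18 and AT1G26540 at -0.16, and those of AT3G60650 were ATG8G, a gene of autophagy, at -0.03 and AT3G60660 at -0.06. AT5G01940 lies beside AT5G01950, at 0.27, and its nearest measured neighbour on the other side was AT5G01910 at 0.05. Among these nearest genes the adjusted p-values by limma were all 0.326 or more.

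AT3G53370 was the neighbour that fell. It is the third gene measured under a name beyond AT3G53310, 8 places away in the gene table. It read 8.70, 8.67 and 8.72 on the wild-type arrays and 8.07, 7.98 and 8.08 on the mutant arrays. The overexpressor arrays, at 8.34, 8.46 and 8.34, again lay between them without overlap. The difference between mutant and wild type was -0.65 (SE 0.062, adjusted p = 0.00171 by limma), opposite to that of AT3G53310. It passed whichever single array was left out and was lost without all 3 arrays numbered 1 (-0.66, adjusted p = 0.0584).

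**Figure D4:**
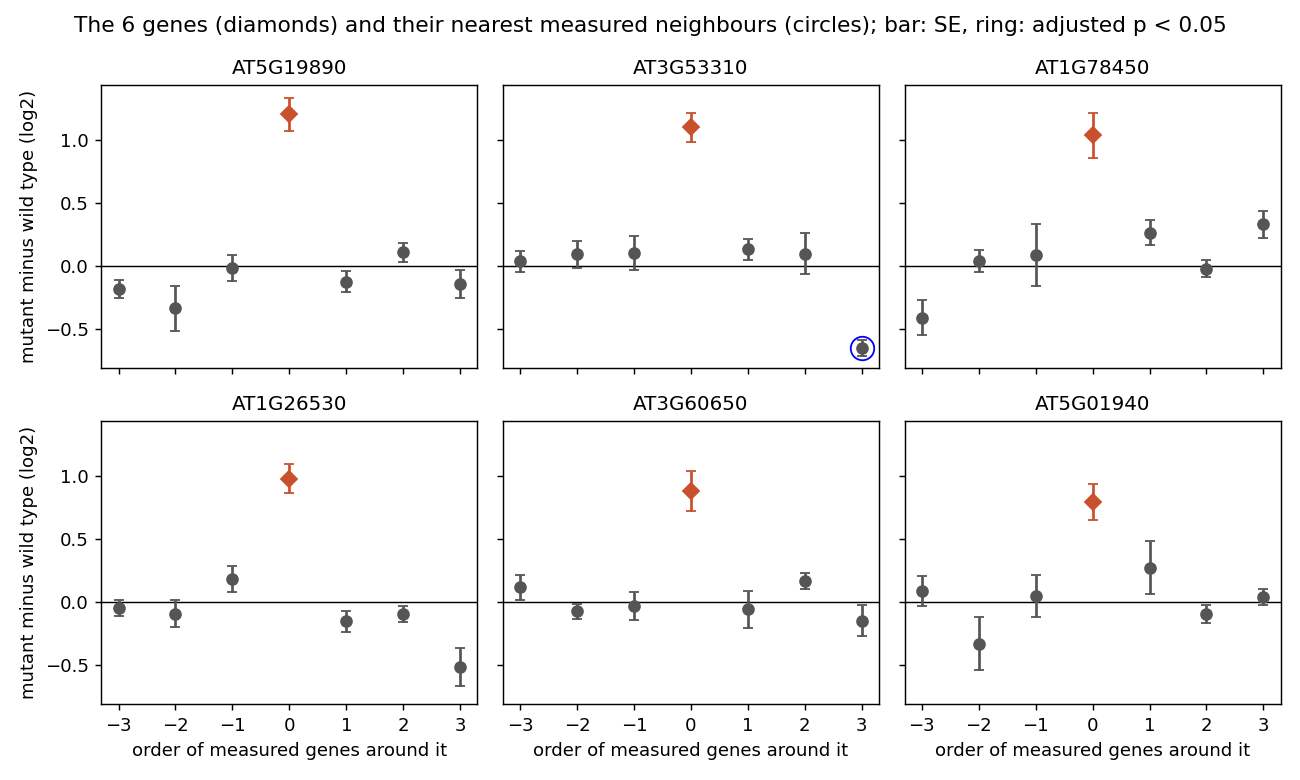
Log2 differences between mutant and wild type, with SE, are plotted for each of the 6 genes (diamonds at 0). Circles show the 3 nearest genes on each side that are measured under a name. The ring marks AT3G53370 (-0.65), the 1 neighbour of 36 that passed the test.

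The root markers measured here had higher means in both lines than in wild type, and neither passed the test. EXPA7 (AT1G12560), an expansin of root hairs, read 5.53, 6.16 and 5.96 on the wild-type arrays, 6.30, 6.16 and 6.38 on the overexpressor arrays, and 6.16, 6.16 and 6.24 on the mutant arrays. EXPA18 (AT1G62980), another expansin of root hairs, read 6.95, 7.73 and 7.61 on the wild-type arrays, 7.92, 7.94 and 7.83 on the overexpressor arrays, and 7.74, 7.99 and 7.95 on the mutant arrays. Wild type 1 was the lowest array for both. The means of mutant and wild-type arrays differed by 0.30 and 0.46 (adjusted p = 0.443 and 0.332 by limma), and by 0.13 and 0.23 without wild type 1. Without wild type 1 the 6 genes differed by 0.82 to 1.22, and AT1G78450, AT3G60650 and AT5G01940 no longer passed. The 6 genes were picked for this difference on the remaining arrays too. Their values therefore cannot be weighed against those of the root markers. The part of root tissue in the differences of the 6 genes was not tested. In whole seedlings more cells of a type and more RNA per cell cannot be told apart.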

How the data were processed

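Per the submitters' processing notes, the authors used affy. They state neither its version nor how background was corrected and probes were normalized and summarised. The table covers 22810 probe sets on 9 arrays, with 64 array controls. The deposited values were read as log2 values, because they lie between 2.63 and 14.7 with array medians from 7.83 to 7.87, and were used as they are. All fold changes rest on that reading.

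Differences were fitted to the other 22746 probe sets with limma 3.58.1 in R 4.3.3, with 1 mean per genotype over all 9 arrays, 6 residual and 3.34 prior degrees of freedom. Tests are two-sided and moderated, with Benjamini-Hochberg adjustment within each comparison and a threshold of 0.05. The procedure was tested on simulated data with noise drawn independently for each probe set and array. Variation shared between probe sets or arrays, as seen in these data, was not simulated. The number of arrays limits the precision, and the median SE of a difference between mutant and wild type was 0.0923.

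Probe sets were named through GEO's platform annotation and RefSeq's genes for TAIR10.1. They comprise 13513 with 1 gene (13484 matched to a locus), 503 with several and 8730 unnamed here. Where several probe sets name 1 locus, the brightest was used. No build is named for the array, so the table gave names and the order of genes only, and no coordinates are printed. Without sequences in the reference tables, the planned search for relatives by protein sequence and for promoter motifs was not run. Relatives were listed by locus instead, after the annotation had been seen.

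The genes, lists and tests were chosen with earlier results of these data known. The text names the 6 genes, the 2 genes next below them, the 3 closest profiles of each, the nearest measured neighbours and any that passed, and up to 4 members of a list by smallest p. Other settings were renewed quantile normalization, a filter on dim probe sets, array weights, a replicate block, only the arrays compared, a variance trend, and each array left out. Leaving out all arrays numbered 1 was added after seeing the data.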

Additional observations from a re-analysis of the deposited data

How the results depend on the processing

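The differences of the 6 genes, mutant minus wild type, 35S::JMJ24 minus wild type and mutant minus 35S::JMJ24, kept their sign in every setting in which they could be fitted. The mutant's difference from wild type ran from 1.09 to 1.34 for AT5G19890, 1.00 to 1.20 for AT3G53310, 0.92 to 1.31 for AT1G78450, 0.89 to 1.1 for AT1G26530, 0.66 to 1.04 for AT3G60650 and 0.71 to 0.94 for AT5G01940. Of the 6, 5 passed in the mutant after renewed quantile normalization, 3 with only the arrays compared, and 3 without any 1 wild-type array or mutant 3. The genes were picked on these arrays, so these counts describe the choice and are no separate support. In 35S::JMJ24 0 of 6 passed by limma in any setting (adjusted p from 0.0874 to 0.891). The count under an unadjusted p of 0.05 by limma was 6 in most settings, 5 without 35S::JMJ24 3 or wild type 1, and 4 without the arrays numbered 1. The choice of the genes on the same wild-type arrays raises that count. When the dimmer 50% of probe sets were dropped, AT1G78450 was the only one of the 6 still tested, and in 35S::JMJ24 it did not pass.

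The count of probe sets that differed between mutant and wild type, 259, was 641 with array weights, 607 with the replicate block, 146 with only the arrays compared, 53 without the arrays numbered 1, and 124 to 229 with 1 array left out. It was 158, 124 and 159 without wild type 1, 2 and 3, and 145 and 139 without mutant 2 and 3. The count in 35S::JMJ24, 4, was 8 with array weights, 1 without the arrays numbered 1, and 2 to 4 with 1 array left out (2 without wild type 2, 35S::JMJ24 1 or 35S::JMJ24 2). The count of peroxidase genes that passed, 2 with 0 higher, was 5 with 1 higher under the replicate block, 1 with only the arrays compared (AT5G64110, with both of the 2 lost), and 0 to 3 with 1 array left out (0 without mutant 2 or 3, 1 without any 1 wild-type array). The count was 0 by limma without the arrays numbered 1 and without the dimmer 50%, where 21 of the genes were tested (12 and 7 at an unadjusted p under 0.05). The 1 neighbour became 0 by limma without the arrays numbered 1 (8 unadjusted), a setting with fewer samples. Of the listed relatives 0 of 9 (0 of 3 without the dimmer 50%) passed by limma in every setting, with at most 2 unadjusted. The other causes were not tested.

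The replicate numbers are shared by the genotypes. The correlation of same-numbered arrays' deviations from their group means ran from 0.014 to 0.438, with a median of 0.207. Between arrays numbered 1 it ran from 0.418 to 0.438. For arrays of different number it ran from -0.527 to 0.271, with a median of -0.198. Because it was below 0.1 for some same-numbered arrays, these were not taken as pairs, although the numbers do carry shared variation. As a hint from the data only, 6 of 9 arrays correlated best with an array of their own number. With the replicate block 0 of the 6 genes passed in 35S::JMJ24 by limma, and AT5G39580 and AT5G64110 passed in the mutant (adjusted p = 0.0140 and 0.0183). Signal near background limits AT1G26530 and AT3G60650.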
